A study of Homo sapiens with 8 samples.

Results

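The small GTPases RAB27A and RAB27B, the myosin V motors MYO5A, MYO5B and MYO5C, and the linkers MLPH, SYTL2 and SYTL4 were followed across 3 culture substrates as 1 group of 8 genes that move secretory vesicles along actin and tether them at the plasma membrane. These 8 genes were picked by name from 58217 genes with a matched transcript, and 7 of them were among the 18201 genes expressed highly enough to be tested. RAB27B and MYO5B were chosen on their fall from VN to VNP2 in these same libraries, so every value given for either gene is a description with no test. MLPH had too few reads to be tested.

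RAB27 proteins sit on secretory vesicles, lysosome-related organelles such as melanosomes, and the multivesicular bodies from which exosomes are released. In the textbook case of the melanosome, RAB27A recruits melanophilin (MLPH), which in turn binds the actin motor MYO5A, and loss of any of these partners leaves pigment granules away from the cell edge. The synaptotagmin-like proteins SYTL2 and SYTL4 also bind RAB27 and hold the vesicle at the membrane through their C2 domains, while MYO5B works mainly with RAB11 on recycling endosomes of polarised cells.

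Every library was made from oligodendrocyte progenitor cells (OPCs) that had been differentiated from the human embryonic stem cell line H9 and kept for 2 days in OPC medium, with no SOX10 transgene. The cells were plated either on Matrigel, a basement membrane extract that served as the control, on recombinant vitronectin (VN), or on VNP2, a peptide designed from the RGD stretch of vitronectin and fused to a mussel adhesive protein. Matrigel had 2 libraries here (replicates 2 and 3), and VN and VNP2 had 3 each, all stranded polyA RNA-seq of bulk cultures from this single line. Nothing in the labels says that replicates were separate differentiations, so p-values measure only the spread between these libraries.

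Each library held between 37997896 and 39429453 estimated read pairs. The VN library of replicate 1 stood apart from the others, with a median chi-square per gene of 2.26 and 2.62 against the other VN libraries compared with 0.784 between those, 0.708 within Matrigel and 0.766 to 1.16 within VNP2, where sampling noise alone gives 0.455. OPC markers summed to 215 to 217 TPM (reads per transcript length, scaled to the library) on Matrigel. They summed to 282 to 296 TPM on VN and 310 to 334 TPM on VNP2. PTPRZ1, the most abundant of them, had means of 108, 151 and 178 TPM on Matrigel, VN and VNP2. OLIG1 reached 48.2, 62.6 and 66.9 TPM, while OLIG2 was highest on VN, at 41.3, 54.0 and 50.8 TPM. The OPC marker SOX10 had 20 reads in all 8 libraries together. Neuron markers summed to 966 to 1183 TPM in the libraries, with TUBB3 alone at means of 548, 551 and 569 TPM on Matrigel, VN and VNP2. The neuron marker RBFOX3 had 108 reads in all 8 libraries together. Sums over lists of different genes do not compare numbers of cells. In such bulk samples fewer cells of a type and less RNA per cell cannot be told apart.

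RAB27B and MYO5B lie on the same chromosome, and their promoter windows are shown because both were picked for their fall from VN to VNP2. The windows were taken from RefSeq (GRCh38.p14), run 5′ to 3′ from 250 bases before the start site to 50 bases after it, and have in capitals each match to 6 motifs searched on both strands: TATAAA (the TATA box), GGGCGG (the GC box), CCAAT (the NF-Y site), CACGTG (the E-box), TGANTCA (the AP-1 site) and GGAATG (the TEAD site).
RAB27B, downstream start, chr18:54828227-54828526, + strand: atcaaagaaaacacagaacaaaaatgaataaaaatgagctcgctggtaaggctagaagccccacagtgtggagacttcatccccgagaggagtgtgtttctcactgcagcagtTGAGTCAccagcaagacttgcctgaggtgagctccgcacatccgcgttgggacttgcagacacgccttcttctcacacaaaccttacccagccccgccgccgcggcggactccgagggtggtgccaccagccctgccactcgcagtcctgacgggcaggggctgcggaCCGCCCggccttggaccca
RAB27B, upstream start, chr18:54717607-54717906, + strand: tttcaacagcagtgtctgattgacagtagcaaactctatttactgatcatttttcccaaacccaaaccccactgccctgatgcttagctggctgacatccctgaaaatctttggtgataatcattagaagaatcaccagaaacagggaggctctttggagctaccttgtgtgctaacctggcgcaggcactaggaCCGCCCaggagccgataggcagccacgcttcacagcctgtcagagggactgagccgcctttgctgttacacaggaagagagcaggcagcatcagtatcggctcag
MYO5B, chr18:50195098-50195397, − strand: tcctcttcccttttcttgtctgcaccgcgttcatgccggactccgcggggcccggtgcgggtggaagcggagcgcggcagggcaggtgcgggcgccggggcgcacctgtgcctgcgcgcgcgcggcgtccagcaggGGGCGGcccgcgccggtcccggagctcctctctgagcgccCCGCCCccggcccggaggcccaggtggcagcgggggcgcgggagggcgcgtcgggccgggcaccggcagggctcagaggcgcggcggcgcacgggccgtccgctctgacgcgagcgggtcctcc

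The windows differed in composition. MYO5B had 80.0% G or C and 47 CpG dinucleotides, the downstream RAB27B window 59.0% and 17, and the upstream RAB27B window 51.0% and 6, against a median of 58.7% and 14 over 35116 RefSeq promoters. The 1 motif present in all 3 was the GC box, which 45.0% of all promoters hold. The downstream RAB27B window also held an AP-1 match that begins 137 bases before its RefSeq start site, a motif found in 7.71% of promoters. Within these 3 windows no capitals overlap between motifs, and a match describes letters, not a bound factor. SYTL2 had no entry among the promoters, and MYO5B had none at the inner start of its shorter transcript MYO5B-202, described below. GENCODE places the first base of RAB27B-201, the main transcript below, at 54828199, just upstream of the downstream window. That whole window, its AP-1 match included, thus lies downstream of the first base of RAB27B-201.

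RAB27B, the RAB27 paralog of platelets and secretory epithelia (ENSG00000041353, chr18:54717860-54895516, + strand), was highest on VN. Its normalized counts, which are estimated reads scaled for library size and transcript length, were 91.2 and 65.9 on Matrigel, 236, 178 and 245 on VN, then 64.3, 59.7 and 89.1 on VNP2. All VN libraries lay above all others, and the Matrigel and VNP2 libraries overlapped. Group means were 78.5 ± 17.9 (SD, n = 2), 220 ± 36.2 (n = 3) and 71.0 ± 15.9 (n = 3). The fitted log2 difference was 1.495 (SE 0.23) for VN minus Matrigel and −1.64 (SE 0.20) for VNP2 minus VN, a level 3.12-fold lower on VNP2, and −0.15 (SE 0.23) for VNP2 minus Matrigel. The gene rests on few reads, 156 in the Matrigel libraries, 575 in the VN libraries and 238 in the VNP2 libraries.

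**Figure D1:**
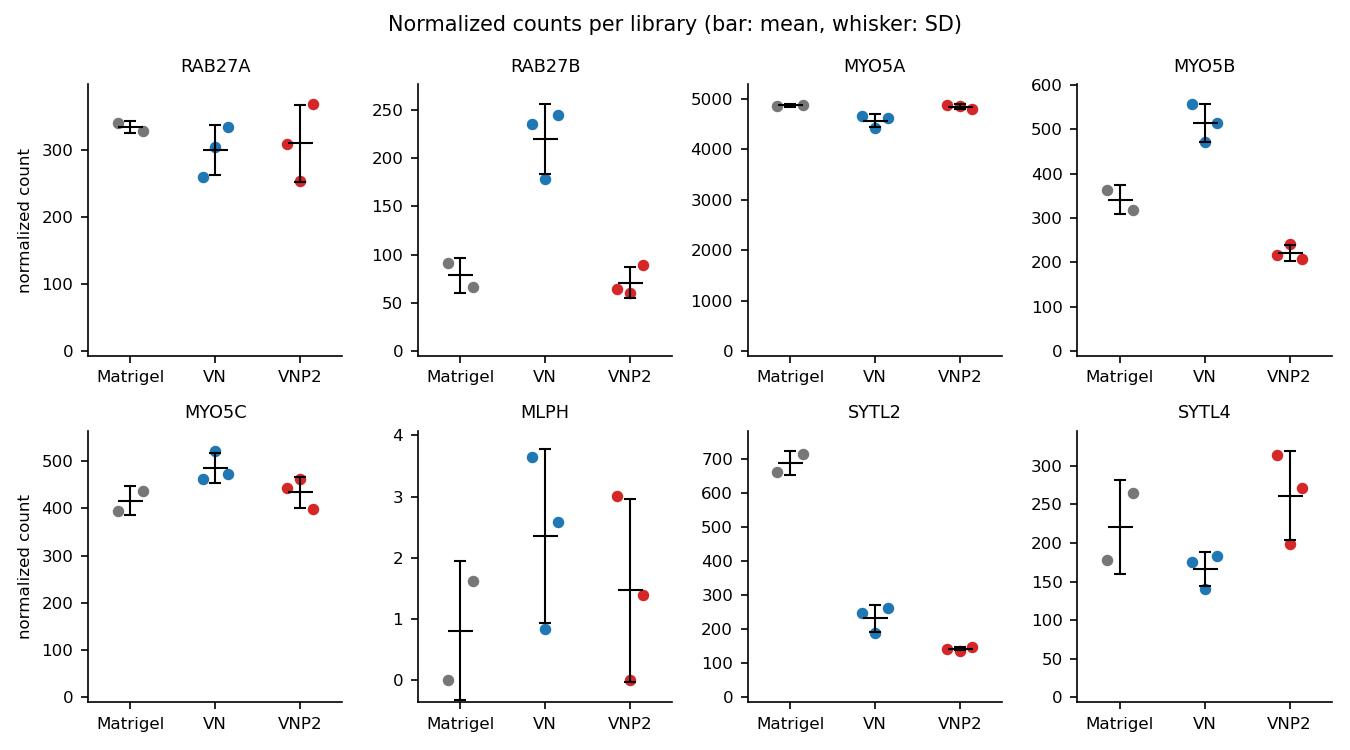
Normalized counts (y axis, one scale per panel) of the 8 genes in each library on Matrigel (grey, n = 2), VN (blue, n = 3) and VNP2 (red, n = 3), where points are libraries, the horizontal mark is the mean and whiskers are the SD. RAB27B and MYO5B are highest in the 3 VN libraries, SYTL2 steps down from Matrigel to VN to VNP2, MYO5A stays between 4427 and 4886 throughout, and MLPH stays under 4.

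Of the 3 groups of annotated RAB27B starts, the middle one carried most of the signal. RAB27B-201, which belongs to this group, begins just upstream of the downstream window above and encodes 218 codons. It held 79.0% of the gene's TPM on average over the libraries. It stood at 0.612 and 0.696 TPM on Matrigel, 1.48, 1.65 and 1.62 TPM on VN, against 0.707, 0.658 and 0.686 TPM on VNP2. The Matrigel and VNP2 libraries overlapped and the VN libraries lay apart from both, with less scatter than the gene total. The short transcript RAB27B-202 (87 codons) from the upstream start held 19.98% of the TPM but only 7.19 estimated reads in its highest library, VN replicate 3, and none in 3 of the 8 libraries. The start furthest downstream held 1.05% of the TPM, from 1 read in VN replicate 1. Such a short transcript turns few reads into a high TPM, and without the length correction the VNP2 minus VN difference of RAB27B was −1.29 instead of −1.64. Without VN replicate 1 it was −1.59, and VN minus Matrigel was 1.45.

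RAB27A, the paralog that serves melanosomes and cytotoxic granules (ENSG00000069974, chr15:55202966-55319113, − strand), was the more abundant GTPase and showed no called change. Its normalized counts were 339 and 327 on Matrigel, 260, 305 and 334 on VN, then 308, 253 and 368 on VNP2, and all groups overlapped. The log2 differences were −0.16 (SE 0.15) for VN minus Matrigel, −0.11 (SE 0.15) for VNP2 minus Matrigel and 0.04 (SE 0.14) for VNP2 minus VN, with adjusted p of 0.54, 0.69 and 0.90 (edgeR quasi-likelihood test, Benjamini-Hochberg over all tested genes). RAB27A-201, with 221 codons, held 77.2% of its TPM. The span of RAB27A overlaps PIGBOS1 on its own strand and PIGB on the other, with 2010 and 2025 reads assigned to them. Whether any reads could belong to more than 1 of these genes was not tested.

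Per transcript length, RAB27A stood at 6.06 ± 0.126 TPM on Matrigel, 5.78 ± 0.806 TPM on VN and 5.90 ± 1.11 TPM on VNP2, and RAB27B at 0.825 ± 0.182, 2.45 ± 0.396 and 0.784 ± 0.178 TPM. RAB27B therefore made up 11.9% ± 2.11 of the summed TPM of both paralogs on Matrigel, 29.9% ± 4.58 on VN and 11.7% ± 0.810 on VNP2. In every library RAB27A stayed the major form.

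MYO5B, the recycling-endosome motor whose loss causes microvillus inclusion disease (ENSG00000167306, chr18:49822813-50195093, − strand), separated all 3 substrates. Its normalized counts were 364 and 318 on Matrigel, 557, 471 and 514 on VN, against 216, 242 and 206 on VNP2. No group overlapped another, with VN highest and VNP2 lowest. Means were 341 ± 32.5 (n = 2), 514 ± 43.0 (n = 3) and 221 ± 18.3 (n = 3), and the log2 differences were 0.59 (SE 0.11) for VN minus Matrigel, −0.62 (SE 0.11) for VNP2 minus Matrigel and −1.21 (SE 0.10) for VNP2 minus VN. Unlike RAB27B, MYO5B thus lay below its Matrigel level on VNP2. Without VN replicate 1 the VNP2 minus VN difference was −1.15 and VN minus Matrigel 0.53, and without the length correction they were −1.17 and 0.59.

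Most MYO5B reads fell to 2 transcripts with different starts. The full-length MYO5B-201 (1848 codons) stood at 0.909 and 1.05 TPM on Matrigel, 1.66, 1.66 and 1.75 TPM on VN, then 0.888, 0.828 and 0.613 TPM on VNP2. MYO5B-202, a 965-codon form that begins inside the gene and lacks the first start codon, stood at 1.40 and 1.09 TPM on Matrigel, 1.32, 1.71 and 1.94 TPM on VN, against 0.626, 0.875 and 0.480 TPM on VNP2. VN exceeded VNP2 in every library for both forms, whereas VN and Matrigel overlapped for MYO5B-202 and not for MYO5B-201. The 2 forms share their 3′ exons, so their split is Salmon's estimate. The antisense gene SNHG22 crosses MYO5B with 114 reads in all, and 3 MYO5B pseudogenes had no reads.

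**Figure D2:**
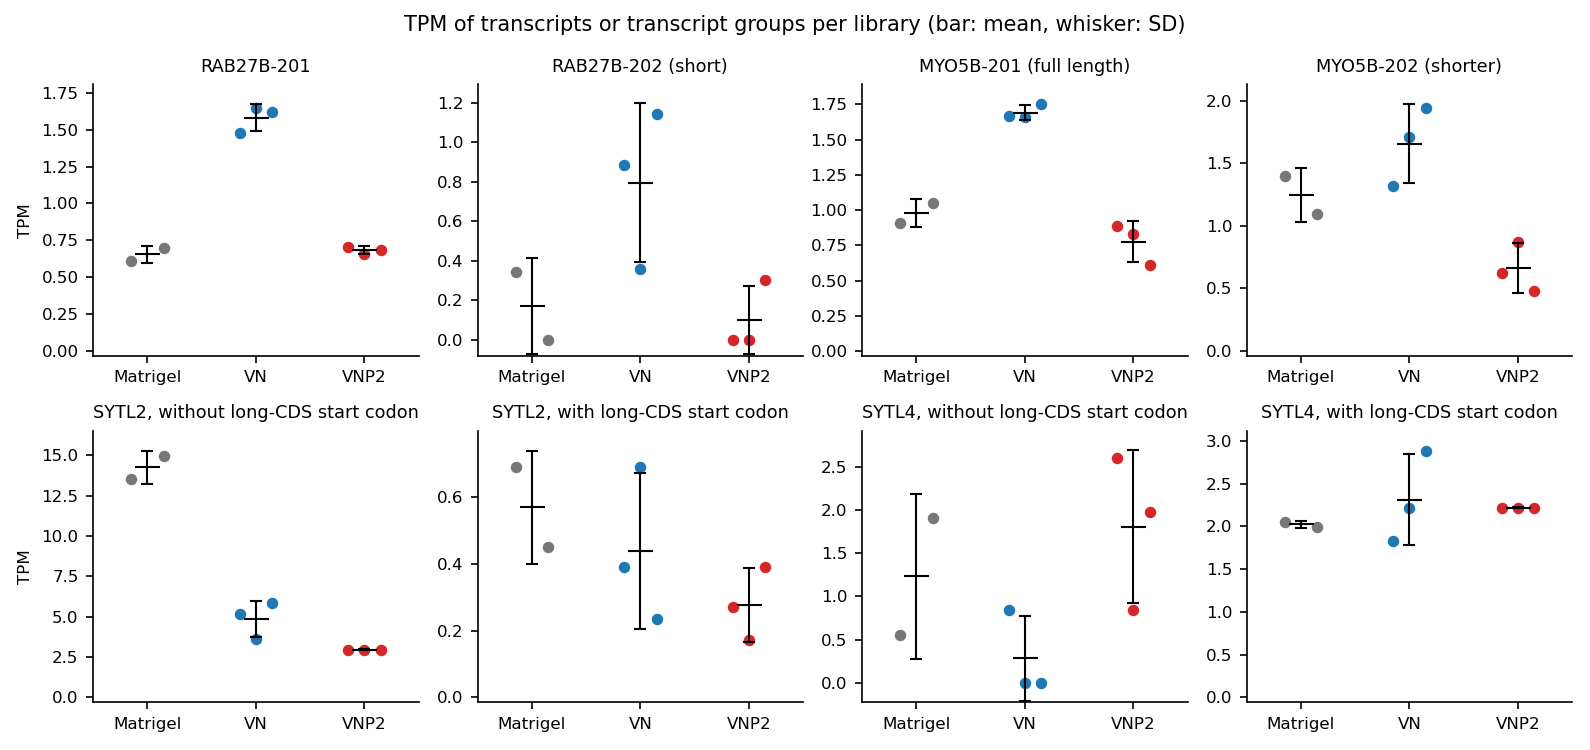
TPM (y axis, one scale per panel) of the main RAB27B and MYO5B transcripts and of SYTL2 and SYTL4 transcripts without or with the start codon of the gene's longest coding sequence, per library on Matrigel (grey, n = 2), VN (blue, n = 3) and VNP2 (red, n = 3), with the mean as a mark and the SD as whiskers. RAB27B-201 lies at 1.48 to 1.65 TPM on VN and at or under 0.707 TPM elsewhere, SYTL2 forms without that start codon fall to 2.96 TPM on VNP2, and SYTL4 forms with it lie at 1.83 to 2.88 TPM in all groups.

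MYO5A, the motor of melanosomes and of endoplasmic reticulum in neuronal spines (ENSG00000197535, chr15:52307283-52529050, − strand), was by far the most abundant of the 8 and hardly moved. Its normalized counts were 4853 and 4886 on Matrigel, 4652, 4427 and 4623 on VN, then 4882, 4864 and 4795 on VNP2. With the length correction the VN libraries lay slightly below all others. Without it VN replicate 3 was the highest library, at 4884. The log2 differences with it were −0.09 (SE 0.04) for VN minus Matrigel, −0.01 (SE 0.04) for VNP2 minus Matrigel and 0.09 (SE 0.03) for VNP2 minus VN. Their adjusted p was 0.12, 0.93 and 0.19 (edgeR), and none was called. Without the length correction VN minus Matrigel was −0.02 and VNP2 minus VN 0.03.

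The main MYO5A transcripts, MYO5A-201 with 63.9% of its TPM and MYO5A-205 with 18.9%, differ by an 81-base coding exon of 27 codons in the tail (chr15:52343117-52343197, GRCh38, − strand), shown here because alternative tail exons set which cargo adaptors MYO5A can bind.
MYO5A tail exon, with no part in capitals: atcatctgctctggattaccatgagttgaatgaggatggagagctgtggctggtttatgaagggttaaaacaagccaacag
Transcripts with this exon held 25.6% and 21.7% of the TPM of those spanning it on Matrigel, 18.6%, 25.8% and 17.6% on VN, against 19.9%, 20.6% and 28.8% on VNP2. The groups overlapped, at means of 23.6% ± 2.76, 20.7% ± 4.45 and 23.1% ± 4.93. A shift in the exon's use was not tested.

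MYO5C, the class V motor of exocrine and other glandular epithelia (ENSG00000128833, chr15:52192322-52295798, − strand), had normalized counts of 394 and 437 on Matrigel, 462, 522 and 472 on VN, then 443, 462 and 398 on VNP2. VN was the highest group by a narrow margin. The log2 differences were 0.22 (SE 0.09) for VN minus Matrigel, 0.06 (SE 0.09) for VNP2 minus Matrigel and −0.16 (SE 0.08) for VNP2 minus VN, with adjusted p of 0.14, 0.73 and 0.33. MYO5C-201 (1742 codons) held 80.8% of its TPM.

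In TPM, the order among the motors was MYO5A above MYO5C and MYO5B on every substrate. MYO5A stood at 21.7 ± 0.214 TPM on Matrigel, 21.6 ± 0.487 on VN and 22.6 ± 0.142 on VNP2. MYO5C stood at 2.77 ± 0.217, 3.43 ± 0.261 and 3.03 ± 0.222 TPM, and MYO5B at 2.29 ± 0.207, 3.65 ± 0.259 and 1.56 ± 0.128 TPM. On VN the 2 minor motors did not differ beyond their spread, while on VNP2 MYO5C was above MYO5B in every library. MYO5B accordingly took 8.56% ± 0.845 of the summed myosin V TPM on Matrigel, 12.7% ± 0.797 on VN and 5.72% ± 0.384 on VNP2.

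**Figure D3:**
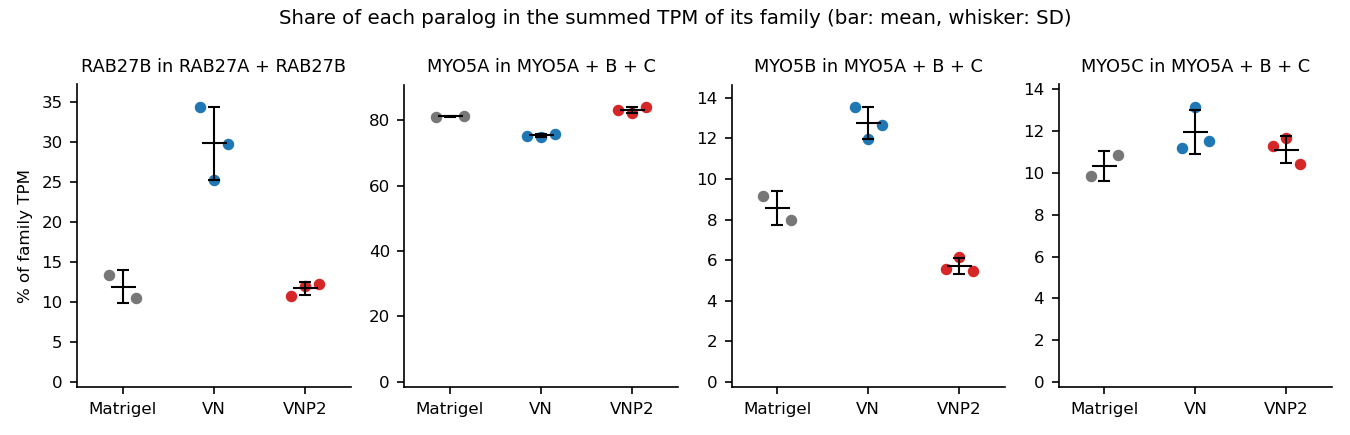
Share of summed family TPM (y axis, percent) held by RAB27B among the RAB27 paralogs and by each motor among MYO5A, MYO5B and MYO5C, per library on Matrigel (grey, n = 2), VN (blue, n = 3) and VNP2 (red, n = 3), with the mean as a mark and the SD as whiskers. RAB27B rises to 29.9% and MYO5B to 12.7% on VN, while MYO5A keeps at least 74.8% in every library.

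Among the linkers, SYTL2, which tethers RAB27A vesicles to the plasma membrane (ENSG00000137501, chr11:85694224-85811159, − strand), showed the largest tested change of the group. Its normalized counts were 663 and 714 on Matrigel, 248, 188 and 263 on VN, against 144, 138 and 148 on VNP2. The groups did not overlap, and the Matrigel libraries lay far above the rest. SYTL2 fell by 1.57 on the log2 scale (SE 0.13) from Matrigel to VN, with an adjusted p of 2.03e-05 in the edgeR quasi-likelihood test, and was 2.97-fold lower there. From Matrigel to VNP2 it fell by 2.26 (SE 0.13, adjusted p = 1.16e-06, edgeR), 4.80-fold lower, and from VN to VNP2 by 0.69 (SE 0.13, adjusted p = 0.010, edgeR), 1.62-fold lower. The last step is the less certain, since it was −0.45 without the length correction (adjusted p = 0.0077), −0.64 without VN replicate 1 (adjusted p = 0.020), and missed the threshold in limma on the authors' normalized counts (−0.68, adjusted p = 0.078), within a range of 0.000325 to 0.078 over all alternatives.

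The SYTL2 reads came mostly from short transcripts. Forms without the start codon of the longest coding sequence held 92.5% of its TPM, at 13.5 and 14.98 TPM on Matrigel, 5.16, 3.64 and 5.83 TPM on VN, then 2.97, 2.94 and 2.97 TPM on VNP2. A cluster of 10 transcripts that begin within chr11:85719075-85719377 alone held 48.5%, and stood at 10.5 ± 0.110 TPM on Matrigel, 2.20 ± 0.548 TPM on VN and 1.33 ± 0.263 TPM on VNP2. In estimated reads this cluster had 471 and 457 on Matrigel, 66.8, 66.8 and 121 on VN, against 52.3, 47.1 and 46.6 on VNP2. Forms with the start codon of the longest coding sequence stood at 0.571 ± 0.170, 0.439 ± 0.233 and 0.278 ± 0.111 TPM, lower on VNP2 in the mean but with overlapping libraries. The 4 transcripts above 10% of the gene's TPM encode at most 376 codons.

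SYTL4, or granuphilin, which docks insulin granules through RAB27 (ENSG00000102362, chrX:100674491-100732123, − strand), was not called in any comparison, and its difference between VN and VNP2 was present with the length correction and not without it. Its normalized counts were 178 and 264 on Matrigel, 175, 141 and 183 on VN, then 314, 199 and 271 on VNP2, and the VNP2 libraries lay above the VN libraries. The log2 difference was 0.64 (SE 0.19) for VNP2 minus VN, −0.40 (SE 0.22) for VN minus Matrigel and 0.25 (SE 0.22) for VNP2 minus Matrigel, with adjusted p of 0.093, 0.25 and 0.51. Its estimated reads, in contrast, were 213 and 207 on Matrigel, 199, 186 and 230 on VN, against 221, 199 and 218 on VNP2. Those reads overlapped between all groups, and without the length correction the VNP2 minus VN difference was 0.04 (adjusted p = 0.87, within a range of 0.013 to 0.87 over all alternatives).

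The 2 kinds of SYTL4 transcript behaved differently. Forms with the start codon of the 671-codon protein stood at 2.02 ± 0.0416 TPM on Matrigel, 2.31 ± 0.531 TPM on VN and 2.22 ± 0.00381 TPM on VNP2. Their VNP2 libraries lay above both Matrigel libraries, and the VN libraries overlapped both groups. Forms without it, SYTL4-205 and SYTL4-206, are short processed transcripts that had 22.2 and 42.9 estimated reads on Matrigel, 32.3, 0 and 0 on VN, then 20.8, 1 and 19.8 on VNP2. SYTL4 also overlaps SRPX2 on the other strand, with 1465 reads.

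MLPH, the melanophilin that joins RAB27A to MYO5A (ENSG00000115648, chr2:237485428-237555318, + strand), had next to no reads. It had 0 and 1 estimated reads on Matrigel, 3 in each VN library, and 2, 0 and 1 on VNP2, or 13 in all. RAB27A and MYO5A were thus both present while this adaptor was at the floor in every library. MYRIP, the related adaptor that links RAB27A to MYO7A and myosin V, was low as well but present, at 0.765, 0.779 and 0.770 mean TPM on Matrigel, VN and VNP2, with no called change, and was named after its values were seen.

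**Figure D4:**
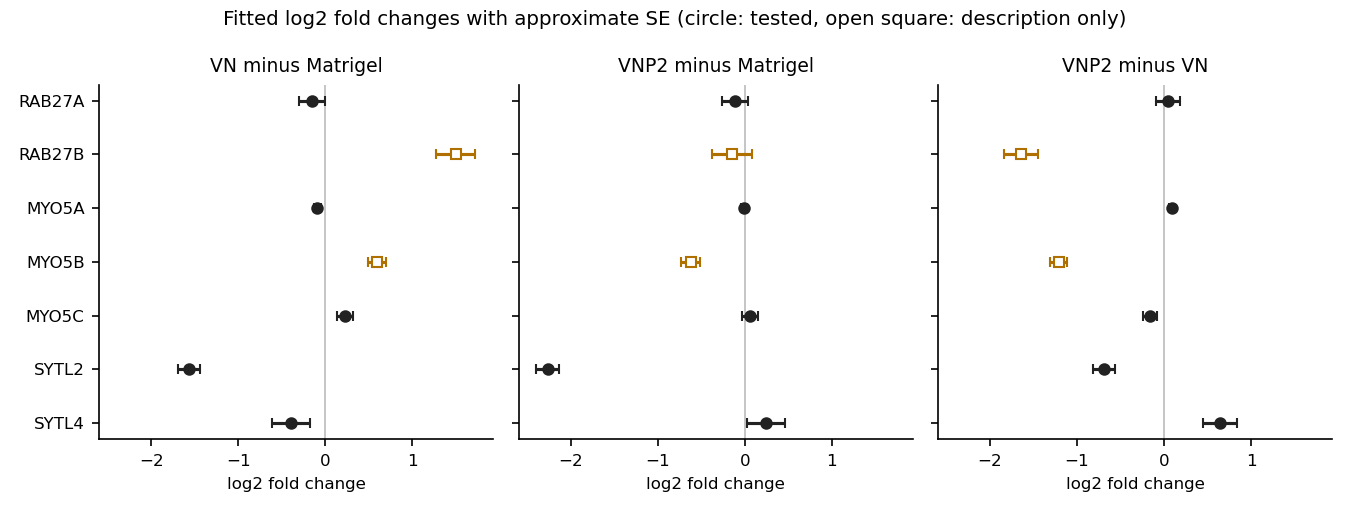
Fitted log2 fold changes (x axis) with approximate SE for the 7 tested genes in the 3 comparisons, where filled circles are tested genes and open squares are RAB27B and MYO5B, whose values are a description. SYTL2 lies at −1.57, −2.26 and −0.69, while RAB27A, MYO5A and MYO5C lie within 0.23 of 0 in all 3.

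Of the 5 tested genes that were not picked on their values, SYTL2 was the 1 called in each comparison, and always lower. For VN minus Matrigel 15.3% of all tested genes were called, 5.66% higher and 9.60% lower, for VNP2 minus Matrigel 16.6%, 7.44% higher and 9.13% lower, and for VNP2 minus VN 5.10%, 3.09% higher and 2.01% lower. Leaving out VNP2 replicate 2 added SYTL4 for VNP2 minus VN, giving 2 of 5. In the test across the 3 substrates SYTL2 was again the 1 of 5 called, against 19.3% of all genes. The median log2 difference of the 5 genes was −0.16, −0.01 and 0.04 in the 3 comparisons, against 0.00 over all tested genes in each. RAB27B and MYO5B are left out of these counts, since they were picked on VNP2 minus VN and each comparison shares libraries with it.

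Of 84 tested genes in 6 lists (other RAB27 effectors, RAB27 regulators and prenylation enzymes, the RAB3 family, myosin V partners, other unconventional myosins, and the exocyst with plasma membrane SNAREs), 1 was called for VNP2 minus VN by edgeR, 1 by DESeq2 and 1 by limma, where edgeR called 5.10% of all tested genes, with 9 higher and 2 lower at an unadjusted p under 0.05. The called gene was MYO1G, a class I myosin of blood cells, which rose by 0.80 (edgeR), from a mean of 1.41 TPM on VN to 2.43 TPM on VNP2. For VN minus Matrigel 3 of the 84 were higher and 8 lower by edgeR, 2 and 10 by DESeq2, and 1 and 4 by limma, beside 5.66% and 9.60% of all genes by edgeR. For VNP2 minus Matrigel 9 were higher and 11 lower by edgeR, 7 and 9 by DESeq2, and 5 and 5 by limma, beside 7.44% and 9.13%. By edgeR the VN minus Matrigel counts lie close to the shares over all genes, and those for VNP2 minus Matrigel lie somewhat above them in both directions. No test of the lists as sets was run, and nothing particular to the lists is read from these counts.

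Among the other RAB27 effectors, edgeR called 1 of 7 higher and 1 lower on VN, beside 5.66% and 9.60% of all tested genes. EXPH5, the RAB27 effector Slac2-b, rose by 0.60 on the log2 scale from Matrigel to VN (edgeR adjusted p = 0.034), a call made neither by DESeq2 (adjusted p = 0.054) nor by limma (adjusted p = 0.072). SYTL5, a close relative of SYTL2, fell by 1.32 on VN and by 1.70 on VNP2 (edgeR adjusted p = 0.00315 and 0.000531), from 0.720 to 0.305 and 0.232 mean TPM, and was chosen after its values were seen since it lies below the count used for naming. Of 10 RAB27 regulators and prenylation genes 1 was called, RABGGTB, the catalytic subunit of the enzyme that prenylates Rab proteins, which fell by 0.21 on VN, where limma did not call it, and by 0.24 on VNP2. In the RAB3 family of 8, RAB3B fell by 0.27 on VN (edgeR adjusted p = 0.020, limma 0.091) and RAB3A rose by 0.26 on VNP2 (edgeR adjusted p = 0.048, DESeq2 0.076, limma 0.10).

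Among the myosin V partners, RAB11FIP1, a RAB11 effector of the recycling endosome, fell by 1.02 on VN and by 1.15 on VNP2, from 40.7 mean TPM on Matrigel to 21.3 and 19.3. In all, VN had 1 of 19 partners higher and 3 lower than Matrigel, and VNP2 had 1 higher and 4 lower. For this and the lists below, the shares over all tested genes were 5.66% and 9.60% on VN and 7.44% and 9.13% on VNP2. Smaller calls were a rise of 0.15 for RAB8B on VN and, on VNP2, a rise of 0.23 for RAB11B and falls of 0.28 for RAB11FIP5 and 0.14 for RAB8A, all Rab GTPases or effectors of membrane recycling. Of these 4, limma called none, and DESeq2 did not call the RAB11FIP5 fall (adjusted p = 0.060). RAB11FIP1 thus stepped down from Matrigel on both substrates, as SYTL2 did, whereas MYO5B lay above its Matrigel level on VN. Of 18 other unconventional myosins, 1 was higher and 1 lower on VN, and 5 were higher and 2 lower on VNP2. MYO1C, a class I membrane motor, fell by 0.65 on VN and 0.58 on VNP2. MYO1G, MYO16 and MYO10, the motor of filopodia, rose by 0.74, 0.35 and 0.14 on VNP2, and MYO19, the mitochondrial myosin, fell by 0.19. The MYO10 rise was not called by limma, nor the MYO19 fall by limma or DESeq2. Among 22 exocyst and SNARE genes, 1 was lower on VN, and 1 was higher and 3 lower on VNP2. STX3, an apical syntaxin, fell by 0.36 and 0.55, SNAP23 and VAMP3 fell by 0.35 and 0.21 on VNP2, and SNAP25, the neuronal SNARE, rose by 0.42 on VNP2. Of these, the STX3 fall on VN and the SNAP23 and VAMP3 falls were not called by limma.

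MYO5B and RAB27B lie 4.52 Mb apart on chromosome 18, and the genes around them were called about as often as all genes, of which 5.10% were called for VNP2 minus VN. Of 15 tested genes between the pair, 1 was called higher and 0 lower for VNP2 minus VN (edgeR, with 1 higher and 3 lower at an unadjusted p under 0.05, and 1 higher and 0 lower by DESeq2 and 0 by limma), at a median log2 difference of −0.04. The called gene was DCC, the netrin receptor, with means of 680 (Matrigel), 1158 (VN) and 1472 (VNP2) normalized counts, which rose by 0.35 from VN to VNP2. The lowest uncalled values, picked out after they were seen, were −0.99 (adjusted p = 0.15, edgeR) for SNHG22, which crosses MYO5B on the other strand, and −0.81 (adjusted p = 0.20, edgeR) for CCDC68, which follows RAB27B. Over the 272 tested genes of the chromosome 8 were called higher and 6 lower. Also within 2 Mb, TCF4 rose by 0.27 and RPL17 fell by 0.20 from Matrigel to VN. The chromosome 15 members are close neighbours too, with MYO5C and MYO5A 0.0115 Mb apart and RAB27A 2.67 Mb further on.

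**Figure D5:**
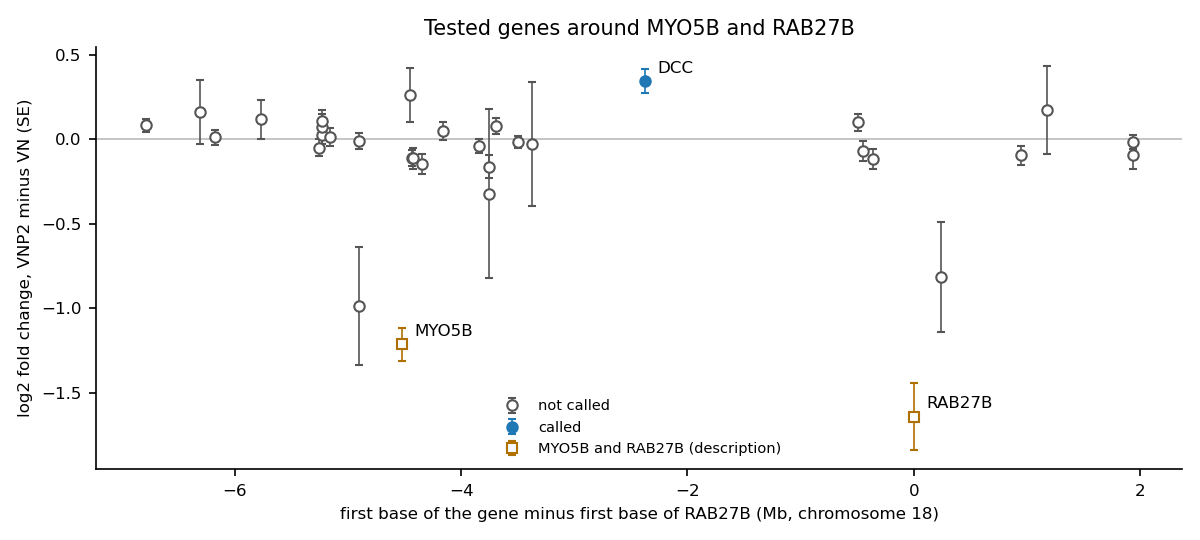
Log2 fold change for VNP2 minus VN with approximate SE (y axis) of the tested genes around MYO5B and RAB27B against the distance of their first base from that of RAB27B (x axis, Mb). MYO5B at −1.21 and RAB27B at −1.64 lie apart from nearly all their neighbours, of which DCC at 0.35 was the only one called within this range.

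The genes whose levels tracked RAB27B or MYO5B most closely over the 8 libraries are given as a description, since both were picked for their pattern and the libraries share substrates. For RAB27B these were PRR14L, EFS, TRNT1, CDCA3 and C2orf68, at Pearson r of 0.954 to 0.966 on log2 normalized counts. All 5 were highest on VN, but by far less, for example for EFS, 3223 mean normalized counts with Matrigel, 3682 with VN and 3273 with VNP2. For MYO5B they were GTSE1, FN1, CDC25B, RIPPLY3 and BBOX1, at r of 0.970 to 0.991, with FN1, which encodes fibronectin, at 32582, 42331 and 25618 mean normalized counts. RAB27B itself had r = 0.877 with MYO5B. For SYTL2, chosen after its values were seen, the 5 were PHLDB1, TNC, ELF4, RGS5 and THBS1 at r of 0.991 to 0.997, and RGS5, a pericyte and smooth muscle marker, stood at 4217, 1440 and 831 mean normalized counts.

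Some markers of other cells fell from VN to VNP2 as RAB27B and MYO5B did. POU5F1, the pluripotency factor, had normalized counts of 123 and 127 on Matrigel, 155, 135 and 170 on VN, against 39, 65.6 and 51.0 on VNP2, the same order as MYO5B, with the reservation that it has near-identical pseudogenes. Of 11 tested pluripotent cell markers POU5F1, TDGF1 and ESRG were called lower on VNP2 than on VN, by 1.56, 2.44 and 1.97 on the log2 scale (edgeR). For this list and the epithelial one below, the shares over all tested genes were 2.01% lower and 3.09% higher. The other pluripotent cell markers were not called and ranged from −1.47 for ZFP42 to 0.29 for GDF3, with NANOG at 0.11 and DPPA4 and DNMT3B each at 0.16. The summed level of the list, held up by LIN28A, DPPA4 and DNMT3B, was 115 to 122 TPM on Matrigel, 112 to 116 on VN and 107 to 110 on VNP2. Of 14 epithelial markers 10 were tested, and CDH1 and ESRP1 fell by 1.13 and 1.95 while KRT8 rose by 0.17. EPCAM, at −0.10, was not called. Their summed level was 162 to 174, 95.6 to 97.5 and 105 to 109 TPM, and GRHL2 and OVOL1 had 35 and 10 reads in all 8 libraries. POU5F1, TDGF1, ESRG, CDH1 and ESRP1 were picked out here after their values were seen. The part of these cells in the RAB27B and MYO5B values was not tested.

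Melanocyte markers were checked because RAB27A, MYO5A and MLPH are known from pigment cells. Of 10 markers 8 were tested, and MITF and DCT were called lower on VNP2 than on VN, by 0.90 and 0.33 (edgeR). Both were chosen after their values were seen, and 2.01% of all tested genes were called lower. The other tested markers were not called. They ranged from −1.76 for TYRP1 to 0.53 for GPR143, with OCA2 at −0.44, SLC45A2 at −0.19, KIT at 0.12 and PMEL at 0.27. The summed level of the list was 47.2 to 48.0 TPM on Matrigel, 55.7 to 59.8 on VN and 51.3 to 52.2 on VNP2. TYR and MLANA, which define pigmented cells, had 1 read each in all libraries, as MLPH was near 0. For SYTL2, mesenchymal markers summed to 500 to 509, 569 to 606 and 491 to 528 TPM, an order that SYTL2 did not share. COL1A1, the most abundant of them on Matrigel, did share the order of SYTL2, at 159, 116 and 63.1 mean TPM, called in all 3 comparisons (edgeR). It was the exception in its list. For VNP2 minus Matrigel 5 of the 7 markers were called higher and 1, COL1A1, lower, beside 7.44% and 9.13% of all tested genes. The part of these cells in the SYTL2 fall was not tested.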

How the data were processed

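RNA-seq of 8 libraries was analysed. The authors quantified reads with Salmon on GENCODE v32 (GRCh38.p13), and the deposited transcript files hold estimated counts, TPM and effective lengths. The deposited gene table holds counts normalized by DESeq2 (library size and length signal). Here, estimated counts were summed per gene through GENCODE v29, which matched 98.8% to 98.9% of counts per library, and rounded. They were fitted with transcript length offsets in edgeR 4.0.16 (TMM, quasi-likelihood test, R 4.3.3) over all 8 libraries, after a filter at a minimum count of 10 and total of 15. Adjusted p (Benjamini-Hochberg, 18201 genes, two-sided) under 0.05 was called. The SE is the log2 difference over the root of F. The script was tested on simulated data. Alternatives were DESeq2 1.42.0, RLE scaling, no length offsets, other filters, replicate as a block, pairwise fits, limma 3.58.1 on the authors' table (pseudocount 1), and each library left out.

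Members and lists were chosen with earlier results of these data known. Beyond the 8 members, the text names called genes of each list whose normalized count averaged 100 or more (at most 3 per direction), the most abundant or near-absent markers, the 5 genes most correlated with RAB27B and with MYO5B, called genes within 2 Mb of either, and transcripts with at least 10% of a gene's TPM. Other genes are said to have been chosen after their values were seen. Some genes this rule names are not reported here.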

Additional observations from a re-analysis of the deposited data

How the results depend on the processing

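Each of the 63 alternative counts of called members stayed within 1.5 times its main value. These counts include the picked RAB27B and MYO5B, so they are a description with no test. Of the alternative log2 differences, the picked pair's included, 318 kept their direction and side of the threshold. Without length offsets, small uncalled differences changed sign: VNP2 minus Matrigel became 0.0015 for MYO5A, −0.054 for MYO5C and −0.032 for SYTL4, and VNP2 minus VN became −0.092 for RAB27A. When single libraries were left out, RAB27A ranged from −0.10 to 0.17 for VNP2 minus VN. For VNP2 minus Matrigel the ranges were −0.25 to 0.019 for RAB27A, −0.38 to 0.10 for RAB27B, −0.012 to 0.0044 for MYO5A, −0.0055 to 0.14 for MYO5C and −0.019 to 0.54 for SYTL4. Without Matrigel replicate 3 the VN minus Matrigel difference of MYO5B, a description, was 0.50. Leaving out VNP2 replicate 2 brought SYTL4 past the threshold for VNP2 minus VN (0.81, adjusted p = 0.042). SYTL4 was also called there by DESeq2 (0.64, adjusted p = 0.037) and with no filter (0.64, adjusted p = 0.013). The cause was not tested.

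Replicate numbers gave no sign of pairing the samples. In their deviations from the group average, same-numbered libraries correlated between −0.17 and 0.18 and differently numbered ones between −0.23 and 0.24. With 2 or 3 libraries per group this cannot exclude pairing. With the number as a replicate block, the added call was SYTL4 for VN minus Matrigel (−0.48) and for VNP2 minus VN (0.63). No call was added for VNP2 minus Matrigel. Depth limits RAB27B, with 156 to 575 reads per group, and MLPH.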
